A study of Homo sapiens with 4 samples.

Results

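GATA2 peaks were examined at 10 genes whose products build platelets and the megakaryocytes that shed them: ITGA2B, ITGB3, GP1BA, GP9, GP6, PF4, PPBP, VWF, SELP and THBS1. A peak was counted for a gene if it overlapped the gene body in GENCODE release 44 extended by 25 kb on each side, on hg38. This gave 16 of the 31777 peaks from asynchronous cells and 1 of the 1648 peaks from mitotic cells. The peaks came from ChIP-seq with an antibody against GATA2 in K562 cells, an established line from a human chronic myeloid leukaemia that carries features of early red cell and megakaryocyte precursors. Asynchronous cells, most of them in interphase, were fixed directly with disuccinimidyl glutarate and formaldehyde. Mitotic cells were arrested with nocodazole, fixed in the same way, stained for MPM-2 (an epitope of mitotic phosphoproteins) and collected by cell sorting. Cells from several rounds of sorting were pooled, and the labels put the share of asynchronous cells among them at below 10%. Each condition had 1 GATA2 library, so no difference between the conditions has a replicate check and none was tested. The lists used here hold positions only, with no height, score or read count, so that sequencing depth is unknown and the absence of a peak does not separate a free site from one below detection. RNA was not measured, and the lists cannot show whether K562 cells transcribe these genes or carry the markers of their type.

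Megakaryocytes are the large bone marrow cells that release platelets. GATA factors, which bind a short DNA element around the letters GATA, act in these cells together with ETS and RUNX factors, and GATA2 is prominent in their progenitors before GATA1 takes over. Many megakaryocyte promoters are known for pairing GATA with ETS elements. The genes fall into the GPIb-IX-V receptor for von Willebrand factor (GP1BA, GP9), the fibrinogen receptor integrin αIIbβ3 (ITGA2B, ITGB3), the collagen receptor (GP6), and the cargo of platelet granules (PF4, PPBP, VWF, SELP, THBS1).

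The sequences that carry the results below are reference sequence, since the reads of the cells were not analysed. For a peak wider than 300 bases, the central 300 bases of the plus strand of hg38 are shown. Capitals mark GATA matches, here GATAA or GATAG preceded by A or T, on either strand, so that a match on the minus strand is read as its reverse complement. In the ITGA2B peak, capitals instead mark a composite of CTG and GATAA separated by 8 bases. The GP6 peak is shown only upstream of the transcription start site (TSS). The first 3 sequences give 1 peak for each of the 3 genes with a peak within 1 kb of their own TSS, at GP6 the peak over the canonical TSS, and the others were chosen after their values had been seen.
ITGA2B peak next to the TSS, chr17:44389784-44390083: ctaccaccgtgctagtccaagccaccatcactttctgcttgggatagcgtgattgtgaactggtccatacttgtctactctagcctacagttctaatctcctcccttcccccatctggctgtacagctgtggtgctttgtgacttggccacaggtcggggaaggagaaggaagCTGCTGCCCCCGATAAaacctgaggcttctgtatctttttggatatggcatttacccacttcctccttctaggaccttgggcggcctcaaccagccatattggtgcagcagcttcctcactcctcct
GP6 peak at the TSS, chr19:55038265-55038476: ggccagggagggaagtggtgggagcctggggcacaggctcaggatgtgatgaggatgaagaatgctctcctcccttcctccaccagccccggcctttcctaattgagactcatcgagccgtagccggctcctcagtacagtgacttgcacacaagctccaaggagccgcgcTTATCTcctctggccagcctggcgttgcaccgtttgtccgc
ITGB3 peak in intron 9, chr17:47291586-47291885: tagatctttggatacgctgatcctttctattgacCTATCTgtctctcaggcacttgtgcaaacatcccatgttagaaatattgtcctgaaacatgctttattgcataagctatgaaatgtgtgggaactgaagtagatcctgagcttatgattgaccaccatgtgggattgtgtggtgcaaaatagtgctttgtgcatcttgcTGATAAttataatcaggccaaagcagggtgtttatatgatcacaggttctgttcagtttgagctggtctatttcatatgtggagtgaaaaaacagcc
ITGB3 peak upstream of the gene, chr17:47251470-47251769: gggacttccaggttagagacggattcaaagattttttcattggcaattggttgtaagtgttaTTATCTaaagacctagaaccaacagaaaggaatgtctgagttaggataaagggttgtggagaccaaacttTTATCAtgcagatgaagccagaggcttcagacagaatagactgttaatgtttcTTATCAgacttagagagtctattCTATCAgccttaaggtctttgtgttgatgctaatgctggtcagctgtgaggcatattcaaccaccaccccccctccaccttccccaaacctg
VWF peak in intron 40, chr12:5983317-5983616: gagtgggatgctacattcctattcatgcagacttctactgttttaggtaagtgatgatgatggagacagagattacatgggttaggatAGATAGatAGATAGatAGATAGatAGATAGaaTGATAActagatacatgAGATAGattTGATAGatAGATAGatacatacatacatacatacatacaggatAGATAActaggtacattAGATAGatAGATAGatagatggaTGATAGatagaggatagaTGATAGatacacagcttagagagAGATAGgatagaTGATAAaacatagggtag

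GATA2 peaks were present at 6 of the 10 genes in asynchronous cells and at 1 in mitotic cells. ITGB3 and GP6 had 5 asynchronous peaks each, ITGA2B and GP9 had 2 each, and VWF and THBS1 had 1 each. GP1BA, PF4, PPBP and SELP had none in either list. The only mitotic peak was upstream of GP9. Of all 20033 protein-coding genes, 64.7% had an asynchronous peak and 8.00% a mitotic peak by the same rule, so both counts of platelet genes lay near the background. The gene share was 60% for asynchronous peaks (95% exact binomial interval 26.2% to 87.8%) and 10.0% for mitotic peaks (0.253% to 44.5%). These intervals, like those given below, cover counting error only and treat genes or peaks as independent. The windows of PF4 and PPBP overlap, and ITGB3 and GP6 held 5 peaks each, so the intervals may be too narrow. Per length, the merged windows held 2.0 asynchronous peaks per 100 kb, and the merged windows of all protein-coding genes 1.46. The median per gene went the other way, at 0.952 per 100 kb for the platelet genes and 1.37 for all protein-coding genes. The peaks were unevenly spread, from 6.71 per 100 kb at GP6 to 0.443 at VWF among the genes that had any, and 4.05% of all protein-coding genes reached the density of GP6.

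The 16 asynchronous peaks were split evenly around the start of the genes, with 8 upstream and 8 downstream of the TSS. All upstream peaks were close to the TSS of the gene whose window held them, at a median of 2.95 kb and at most 5.9 kb. The window reached 25 kb. The farther of the upstream peaks at GP6 covered a TSS of RDH13. Over all protein-coding genes, the 10539 pairs of a gene and a peak within 25 kb upstream had a median distance of 10.8 kb. This comparison was not among the planned results, rests on 8 peaks of the platelet genes and was not tested. An asynchronous peak lay within 1 kb of an annotated TSS at 3 of the 10 genes (ITGA2B, ITGB3 and GP6), against 16.5% of all protein-coding genes. For ITGB3 this was a TSS inside the gene. For 11 of the 16 peaks, the nearest protein-coding TSS belonged to the platelet gene itself, and the others were nearest to NLRP2, RDH13 or a longer protein-coding transcript unit that starts near ITGB3.

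GP9 encodes a small subunit that the GPIb-IX-V receptor needs to reach the platelet surface. The gene (ENSG00000169704, chr3:129060779-129062406) is read from the plus strand. Both of its asynchronous peaks were intergenic and upstream. The nearer peak, chr3:129056807-129057303, was 497 bp wide, centred 3724 bp from the TSS, and held 2 GATA matches. The farther peak was centred 5.9 kb from the TSS and at 693 bp was wider than 90.7% of all asynchronous peaks.

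In mitotic cells, the farther GP9 site had a peak and the nearer one had none. The mitotic peak was 379 bp wide and lay wholly inside the asynchronous peak, of which it covered 54.7%. The midpoints of the 2 peaks were 2.0 bp apart. The asynchronous peak held 4 GATA matches, all of them on the minus strand, and the mitotic peak held 2. The number in the mitotic peak depends on where its edges were called. The shared peak was 1 among 16, or 6.25% (95% exact binomial interval 0.158% to 30.2%), against 5.04% of all asynchronous peaks. Among the 1726 asynchronous peaks of similar width, from 643 to 743 bp, 284 or 16.5% shared bases with a mitotic peak. Whether asynchronous cells left in the sorted sample contributed to this mitotic peak was not tested.

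GP1BA, which encodes the subunit that grips von Willebrand factor, was without peaks. The gene (ENSG00000185245, chr17:4932277-4935023) is read from the plus strand, among 6 other protein-coding genes within the window. Its nearest asynchronous peak, in intron sequence of MINK1, was 93.5 kb from the TSS. The window held 46 GATA matches, and as it held no peak, none of them could lie in one.

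ITGA2B and ITGB3 encode the α and β chains of the fibrinogen receptor, through which platelets aggregate. ITGA2B (ENSG00000005961), chr17:44372180-44389649 on the minus strand, is also the classic surface marker CD41. Its first peak, chr17:44389745-44390122, started 96 bp upstream of the TSS and was 378 bp wide, which is the median width of the whole list. The peak held a single GATA match, TGATAG on the strand of the gene, at its edge, from 44389746 to 44389751. It also held the composite printed above, from 44389957 to 44389972, and the ETS string AGGAAGT from 44390014 to 44390020. The GATAA of the composite follows a C and is therefore no GATA match by the strings used. It was the only composite among the 16 peaks. The other ITGA2B peak, chr17:44393375-44393807, was 433 bp wide, centred 3942 bp upstream, and held 1 GATA match. Neither peak shared bases with a mitotic peak.

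ITGB3 (ENSG00000259207), chr17:47253827-47313743 on the plus strand, had 1 peak upstream and 4 in introns. The upstream peak, chr17:47251451-47251789, was 339 bp wide and held 4 GATA matches, all within the central 200 bp. Peaks of 467 and 252 bp lay in intron 1, the former with 3 GATA matches and the RUNX string AACCACA, the latter with 1 GATA match and 2 AP-1 strings (TGACTCA or TGAGTCA). A peak of 253 bp in intron 6 held no GATA match and 1 AP-1 string. The peak in intron 9, chr17:47291501-47291971, was 471 bp wide with 2 GATA matches, and lay 448 bp from an internal TSS of ITGB3. None of the 5 peaks had a mitotic counterpart. Their intron positions apply also to the longer protein-coding unit ENSG00000259753, which shares these introns, so a peak in them cannot be assigned to one annotation alone.

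GP6 encodes the receptor by which platelets sense collagen. The gene (ENSG00000088053, chr19:55013705-55038264) is read from the minus strand, and was the one gene of the 10 whose canonical TSS lay inside a peak. This peak, chr19:55038016-55038638, was 623 bp wide, wider than 86.2% of all asynchronous peaks, with its midpoint 63 bp upstream of the TSS. It held 1 GATA match, AGATAA on the strand of the gene, from 55038436 to 55038441, and 1 RUNX string. A further peak, chr19:55018698-55018911, lay in intron 5 over the start of a shorter GP6 transcript, was 214 bp wide and held 1 GATA match. Both overlap introns of the antisense lncRNA gene GP6-AS1. The other 3 peaks of the window were nearer to other genes. Peaks of 424 and 272 bp lay beyond the 3′ end of GP6 and nearest to NLRP2, with 0 and 2 GATA matches, and a peak of 206 bp with 2 GATA matches covered a TSS of RDH13. No GP6 peak was found in the mitotic list.

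The granule cargo genes had 2 asynchronous peaks among 5 genes and no mitotic peak. By the same rule, 64.7% of all protein-coding genes had an asynchronous peak and 8.00% a mitotic peak. With 5 genes, of which PF4 and PPBP have overlapping windows, no difference from these shares can be read. THBS1 encodes thrombospondin, an adhesive glycoprotein that platelets release. The gene (ENSG00000137801, chr15:39581079-39599466) is read from the plus strand. Its only peak, chr15:39578663-39579253, was 591 bp wide, wider than 83.4% of asynchronous peaks, centred 2121 bp upstream of the TSS, and held 3 GATA matches.

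VWF encodes von Willebrand factor, the large adhesive protein of platelets and endothelium. The gene (ENSG00000110799, chr12:5948877-6124770) is read from the minus strand and is the longest of the 10. Its only peak, chr12:5983315-5983619, lay 141 kb downstream of the TSS in intron 40 and was 305 bp wide. This peak held 15 GATA matches, a number reached by 0.758% of all asynchronous peaks. As the printed sequence shows, the matches lie in repeats of GATA, with an uninterrupted run of 8 units. Runs of at least 8 units occurred in 364 asynchronous peaks, or 1.15%, and 2 of those 364 shared bases with a mitotic peak. The number of units in K562 cells was not measured.

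PF4 and PPBP encode chemokines packed into platelet α-granules, and are neighbours, both read from the minus strand, with PF4 (ENSG00000163737) at chr4:73980811-73982027 and PPBP (ENSG00000163736) at chr4:73986439-73988190. Their windows overlap, so they are not independent, and neither held a peak. The nearest asynchronous peaks were 72.8 kb from the TSS of PF4 and 68.4 kb from that of PPBP. SELP (ENSG00000174175), chr1:169588849-169630193 on the minus strand, encodes P-selectin, which moves from the granules to the surface of activated platelets. Its TSS was 181 kb from the nearest asynchronous peak, the largest distance of the 10 genes.

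GATA matches were also present near these genes. The windows of PF4, PPBP and SELP held 126, 133 and 243 GATA matches, and many of those of PF4 and PPBP are the same because the windows overlap. As these windows held no peak, none of their matches could lie in one. Of all GATA matches of the genome, 1.12% lay in an asynchronous peak. RefSeq (GRCh38.p14) gave a promoter of 250 bases before and 50 after the TSS for 6 of the 10 genes. In these promoters, a GATA match was found for ITGA2B, GP6, PPBP and SELP, against 25% of all 35116 promoters, and the ETS string for ITGA2B, GP9, PPBP and SELP, against 8.24%. The promoters of ITGA2B and GP6 overlapped a GATA2 peak and those of PPBP and SELP did not. To show the letters without a peak, the 250 bases before the TSS of both genes are given 5′ to 3′ on the minus strand, the strand of the genes, with GATA matches in capitals.
PPBP promoter, chr4:73988191-73988440: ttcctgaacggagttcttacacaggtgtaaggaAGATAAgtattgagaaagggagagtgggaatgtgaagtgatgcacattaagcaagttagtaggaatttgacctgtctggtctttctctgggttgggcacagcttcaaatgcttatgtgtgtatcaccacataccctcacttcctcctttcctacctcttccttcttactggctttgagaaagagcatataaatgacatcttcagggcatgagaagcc
SELP promoter, chr1:169630125-169630374: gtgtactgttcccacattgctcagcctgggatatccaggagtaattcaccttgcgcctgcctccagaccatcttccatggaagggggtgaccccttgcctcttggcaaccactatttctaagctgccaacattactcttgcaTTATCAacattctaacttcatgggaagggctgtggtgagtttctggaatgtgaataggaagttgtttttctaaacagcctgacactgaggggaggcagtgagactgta

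Across the merged windows, 42 of 1448 GATA matches lay in an asynchronous peak, or 2.9%, against 1.12% of the 7103600 matches of the genome. The genome includes sequence far from genes, and the windows of all protein-coding genes were not counted for this share, so the values are not alike. By gene, this share ran from 10.5% at GP9, with 6 of 57 matches, to 1.89% at THBS1, with 3 of 159, among the genes with peaks. At VWF, all 15 matches in a peak came from the repeat-rich peak in intron 40, and the 15 other peaks held 27 matches.

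A GATA match was found in 14 of the 16 asynchronous peaks, or 87.5% (95% exact binomial interval 61.7% to 98.4%), against 93.0% of all asynchronous peaks. The peaks without one were those in intron 6 of ITGB3 and in NLRP2. The median number of matches per peak was 2, the same as over the whole list. At least 2 matches were held by 9 of the 16 peaks, or 56.2%, against 66.4% of all. Per kb of sequence, the peaks held 6.54 matches and the whole list 6.0, and the 15 peaks other than that of VWF held 4.42. Among the 14 peaks with a match, the match nearest to the midpoint was within 50 bp of it in 7, a count not made for the whole list. Among other strings, the E-box CAGCTG was present in 3 of the 16 peaks, beside 24.1% of all asynchronous peaks. RUNX (AACCACA) and AP-1 strings were present in 2 peaks each, beside 13.6% and 13%, and the ETS string AGGAAGT in 1, beside 14.9%. The composite, also in 1 peak, was present in 8.55% of all. The KLF string CCACACCC was in none of the 16 peaks and in 4.05% of all. With 16 peaks, the exact intervals of these shares included the share of the whole list in each case.

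The widths of the 16 peaks ran from 206 to 693 bp, with a median of 401 bp and quartiles of 267.25 and 477.5 bp. The whole asynchronous list had a median of 378 bp and quartiles of 267 and 518 bp. The widest peak was the one at GP9 with a mitotic counterpart, followed by the peaks at the TSS of GP6 and upstream of THBS1, each of them wider than at least 83.4% of the list. The GP9 mitotic peak was wider than 71.8% of mitotic peaks. Width is the only quantity that the lists give for a peak, and it is not a measure of read number.

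A further 24 genes of megakaryocytes and platelets were counted by the same rule. Asynchronous peaks were found at 17 of them, or 70.8% (95% exact binomial interval 48.9% to 87.4%), and mitotic peaks at 3, or 12.5% (2.66% to 32.4%), beside the same 64.7% and 8.00% of all protein-coding genes. LTBP1, which encodes a protein that tethers latent TGF-β, had 10 asynchronous peaks in a window of 503 kb. NBEAL2, needed for α-granules, had 4 asynchronous peaks, and TUBB1, the β-tubulin of platelets, had 3. CLEC1B, F13A1, FERMT3, P2RY1, P2RY12, SRGN and TBXA2R had none.

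The 3 genes with a mitotic peak were GP1BB, LTBP1 and RAB27B. GP1BB encodes the β chain that joins GP1BA and GP9 in the receptor. Its mitotic peak, chr22:19723337-19723738, was 402 bp wide and covered the TSS, held 1 GATA match, and overlapped an asynchronous peak of 575 bp. This sequence is annotated also as part of SEPTIN5 and of the protein-coding unit ENSG00000284874. GP5, the remaining gene of the receptor, had 1 asynchronous peak and no mitotic peak. The mitotic peak of LTBP1, chr2:33108703-33108907, lay in intron sequence 162 kb downstream of the TSS, within an asynchronous peak of 882 bp. RAB27B, a small GTPase of granule secretion, had a mitotic peak of 217 bp, chr18:54806124-54806340, 22.2 kb upstream of the canonical TSS and within the annotated gene, over an asynchronous peak of 216 bp.

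Red cell membrane genes and genes of secreted liver proteins, 10 each, were counted in the same way. All 10 red cell membrane genes had an asynchronous peak (95% exact binomial interval 69.2% to 100%) and 5 had a mitotic peak (18.7% to 81.3%). Of the liver genes, 6 had an asynchronous and 1 a mitotic peak, the same numbers as for the 10 platelet genes. The median number of asynchronous peaks per gene was 1 for platelet genes, 5.5 for red cell membrane genes and 1 for liver genes, in windows with a median of 67.9, 86.1 and 61.9 kb. The TSS was within 1 kb of an asynchronous peak at 3 platelet, 9 red cell membrane and 0 liver genes. The lists were chosen with earlier results known and are set side by side without a test.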

How the data were processed

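The authors aligned the ChIP-seq reads to hg38 with BWA (0.7.12), kept uniquely mapped reads, called peaks with MACS2 (2.1.0) and Genrich (0.6.1) and removed blacklisted regions. How both callers and the inputs were combined, and the thresholds, are not given in the sources used here. The deposited values are positions in bp, in 3 columns per list. Input libraries were not analysed here.

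Positions are printed with the first base as 1. Genes, windows and TSS were taken from GENCODE release 44. Positions of peaks inside a window are distances from the peak midpoint to the TSS of the canonical transcript. Distances from that TSS to the nearest peak, and their medians over genes, run to the nearest edge of the peak. The 1 kb rule and the nearest protein-coding TSS of a peak also use peak edges, with the TSS of any annotated transcript of a protein-coding gene. Peaks were shared if they had at least 1 base in common. Strings for motifs were searched in the hg38 reference on each strand, with no base counted in more than 1 match of a motif, and promoters came from RefSeq (GRCh38.p14). Shares carry exact binomial intervals at 95%. With 1 library per condition no test was made. Counting steps were tested on simulated data. The alternatives changed the window, the assignment to genes, the width minimum, the overlap rule, the motif strings, the TSS used and the inclusion of VWF. All 10 genes, and the genes nearest to or containing their peaks, are named. The sequence and position of the mitotic peak are not reported here. Of the 24 further platelet genes, the rule gives values for those with a mitotic peak, and the others named were picked after their values were seen. The 10 genes and all gene lists were chosen with earlier results of these data known. Computation used scipy 1.17.1, pandas 2.3.3 and numpy 2.4.6 under Python 3.11.15, and plots matplotlib 3.10.9.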

Additional observations from a re-analysis of the deposited data

How the results depend on the processing

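The counts depended most on the window. In the gene body alone there were 7 asynchronous peaks at 3 genes (ITGB3, GP6 and VWF) and 0 mitotic peaks at 0 genes, so that the share of asynchronous peaks with a mitotic counterpart was 0%, since the peaks of ITGA2B, GP9 and THBS1 lie outside the genes. With 10 kb or 50 kb on each side, 6 genes had asynchronous peaks and 1 had a mitotic peak, as with 25 kb, and the asynchronous peaks numbered 15 and 23. Of all protein-coding genes, 36.8% had an asynchronous peak in the gene body, 52.6% within 10 kb and 76.0% within 50 kb. The share of platelet genes was 60% at both 10 kb and 50 kb, with a 95% exact binomial interval of 26.2% to 87.8%. This interval includes the 52.6% and the 76.0% of all protein-coding genes. For mitotic peaks, the shares of all protein-coding genes were 4.01% in the gene body, 5.75% within 10 kb and 11.7% within 50 kb. When narrower peaks than the median were left out, 9 asynchronous peaks at 5 genes remained, or 1.13 per 100 kb. The share of asynchronous peaks with a GATA match was 100% when any GATA counted. The other alternatives, including the removal of VWF, stayed within 1.5 times the count or within the 95% interval of the value. The removal of the VWF peak from the number of GATA matches per kb was chosen after seeing the data. The unknown depth of the libraries limits every statement on an absent peak. No paired analysis was possible because each condition has 1 library.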

Other observations

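The mitotic peaks nearest to the genes without one lay far from most of them. For ITGA2B the nearest, chr17:44266632-44266900, was 123 kb from the TSS, in intron 1 of SLC4A1, which encodes the anion exchanger of the red cell membrane. The corresponding distances were 139 kb for VWF, 140 kb for THBS1, 317 kb for SELP, 392 kb for PPBP, 398 kb for PF4, 850 kb for GP6, 1150 kb for ITGB3 and 2060 kb for GP1BA, against 5.71 kb for GP9. The median over the 10 genes was 355 kb, beside 488 kb over all protein-coding genes. These distances run to the nearest edge of a peak. For THBS1 the nearest mitotic peak was in an intron of FSIP1, the adjacent gene, and for VWF it was intergenic. The asynchronous peak nearest to the canonical VWF TSS, at 98.0 kb, lay in intron 1 of CD9, which encodes a tetraspanin of platelets. The asynchronous peak nearest to the TSS was at a median of 36.0 kb for the 10 genes and 23.7 kb for all protein-coding genes.

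Widening the windows to 50 kb added 4 asynchronous peaks at ITGB3, 2 at GP9 and 1 at ITGA2B, and none at GP1BA, PF4, PPBP or SELP. Among the 24 further platelet genes, 3 (12.5%) had a mitotic peak with windows of 25 kb and 5 (20.8%) with windows of 50 kb. The share of all protein-coding genes also rose, from 8.0% to 11.7%.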
